A study of Homo sapiens with 2 samples.

Results

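Here 7 receptor genes were followed in VMRC-LCD cells after transfection of siRNA against the lncRNA *DRAIC*. They are *OR51E1* and *OR51E2*, which are odorant receptors, *TAAR1*, a trace amine receptor, and *FFAR1*, *FFAR2*, *FFAR3* and *FFAR4*, which are receptors for free fatty acids. They were picked by gene symbol as chemosensory receptors tied to endocrine cells, with their signals and differences on these arrays already known, so their values are a description. All 7 have 1 transcript cluster each, of 17687 named genes and 21448 transcript clusters on the array. VMRC-LCD is a neuroendocrine (NE)-differentiated lung adenocarcinoma line. Cells received a negative control siRNA (si-NC) or an siRNA against *DRAIC* (si-*DRAIC*2), each at 20 nmol/L, and total RNA was measured after 72 h on the Human Clariom S platform, with 1 array for each siRNA. Both groups share the line, the culture medium and the transfection, and differ in the siRNA. Without replicate arrays, no difference below has an error or a test. Only si-*DRAIC*2 was arrayed against *DRAIC*, so loss of *DRAIC* and other actions of this siRNA cannot be told apart.

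The receptors are G protein-coupled receptors that report small molecules to the cell. Odorant receptors are known from the olfactory epithelium, where they signal through the G protein subunit encoded by *GNAL* and raise cAMP, and a few of them are also found elsewhere, *OR51E1* and *OR51E2* in prostate and in endocrine cells of the gut among other places. Both respond to fatty acids of short or medium chain. *TAAR1* responds to amines such as tyramine and phenylethylamine, which arise by decarboxylation of amino acids, and is known to raise cAMP. *FFAR1* and *FFAR4* bind long-chain fatty acids, and *FFAR2* and *FFAR3* bind acetate, propionate and butyrate. In endocrine cells of the gut and in pancreatic islets, the fatty acid receptors are known to act on hormone secretion.

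Most NE and epithelial markers were bright in both conditions, and lung markers were mostly dim. Of the 6 NE marker genes with a named row, all 6 lay above the presumed silent level defined below, among them *CHGB* (15.19 in si-NC and 15.16 in si-*DRAIC*2) and *INSM1* (13.91 and 13.43). Of 5 epithelial markers 4 did, with *EPCAM* at a log2 signal of 15.92 on both arrays. Of 4 lung adenocarcinoma markers, only *NKX2-1* did (5.98 and 6.42). None of the 4 leukocyte and none of the 3 endothelial markers did, whereas 1 of 3 fibroblast markers did, the collagen gene *COL1A2* (8.73 and 8.40), whose part in the results was not tested. *DRAIC* itself has no named row, so the knockdown was not checked on these arrays.

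The members whose start sites lie in the sequence table used here differ in the make-up of their promoters. The promoter table of RefSeq (GRCh38.p14) holds 5 of the 7 genes, each with 250 bases before and 50 bases after the start, and the windows of 3 are printed. *TAAR1* and *FFAR2* are shown because their differences were the most negative of the 7, and *FFAR1* because it lies in the same gene cluster as *FFAR2* and was not lower. They lie at chr6:132659133-132659432 on the minus strand (*TAAR1*), chr19:35448007-35448306 on the plus strand (*FFAR2*) and chr19:35347652-35347951 on the plus strand (*FFAR1*). Capitals mark matches on either strand to 7 searched motifs.
TAAR1: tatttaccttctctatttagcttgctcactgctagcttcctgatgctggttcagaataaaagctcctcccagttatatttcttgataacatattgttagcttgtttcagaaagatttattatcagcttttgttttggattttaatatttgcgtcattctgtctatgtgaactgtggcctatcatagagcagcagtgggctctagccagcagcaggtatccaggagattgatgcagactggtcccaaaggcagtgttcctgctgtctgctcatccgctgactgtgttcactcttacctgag
FFAR2: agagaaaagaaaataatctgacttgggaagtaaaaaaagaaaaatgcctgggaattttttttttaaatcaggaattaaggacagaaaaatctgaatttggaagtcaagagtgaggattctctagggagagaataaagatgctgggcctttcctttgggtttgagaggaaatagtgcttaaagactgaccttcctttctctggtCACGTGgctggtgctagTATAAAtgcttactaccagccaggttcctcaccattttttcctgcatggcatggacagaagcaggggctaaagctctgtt
FFAR1: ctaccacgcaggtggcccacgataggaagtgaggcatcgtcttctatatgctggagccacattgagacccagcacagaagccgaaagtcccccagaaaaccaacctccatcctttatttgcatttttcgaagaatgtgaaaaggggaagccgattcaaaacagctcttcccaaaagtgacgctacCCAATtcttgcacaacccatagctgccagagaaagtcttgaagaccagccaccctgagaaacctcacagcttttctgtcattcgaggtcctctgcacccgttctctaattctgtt

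The search used the TATA box with the letters TATAAA, an E-box with CACGTG and a second form of it with CAGCTG. It also used the CCAAT box, the GC box with GGGCGG and the cAMP response element in its full form TGACGTCA. The last motif was a common variant of that element, TGACGTAA. The window of *FFAR2* holds CACGTG, 47 bases before the start, and TATAAA, 30 bases before it, which do not overlap. Of all 35116 promoters of the table, 7.26% hold CACGTG and 11.5% TATAAA. The window of *FFAR1* holds CCAAT, 65 bases before the start, which 34.6% of promoters hold. No match was found in the windows of *TAAR1* and *OR51E1*, and that of *FFAR4* holds CAGCTG, as 17.9% of promoters do. The promoters of *FFAR2* and *TAAR1* had a GC content of 40.3% and 42.3% and those of *FFAR1* and *OR51E1* 49.0% and 57.0%, below the median of 58.7% over the table, and that of *FFAR4* had 67.0%. The *FFAR4* window holds 23 CG pairs and the *FFAR2* window 1, against a median of 14. Such matches describe the letters only.

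To read the signals, 491 genes of families presumed not expressed in this line were used as a yardstick (odorant, taste, vomeronasal and trace amine receptors other than the 7 genes, beta-defensins and keratin-associated proteins). The 95th percentile of their mean log2 signals was 5.88, which is called the presumed silent level here. Of the 7 receptor genes, 5 lay above it and 2 below. The brightest of the 491 genes, of the keratin-associated proteins, had a mean signal of 10.51. *TAAR1* and *OR51E2* lay above that value too, whereas *FFAR1*, *FFAR2* and *OR51E1* lay within the range of the yardstick genes. Signals of different genes come from different probes, so their order is one of brightness and not of RNA amount, and with 1 array per condition no spread is known for any step in it. From bright to dim by mean signal the order was *TAAR1* (11.58), *OR51E2* (10.74), *FFAR1* (8.65), *FFAR2* (8.43), *OR51E1* (6.81), *FFAR4* (4.94) and *FFAR3* (3.82).

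**Figure D1:**
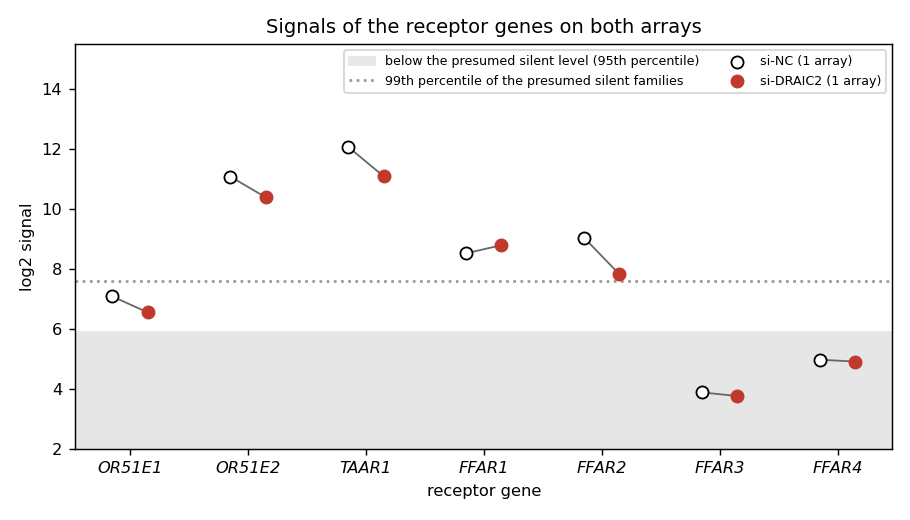
Log2 signal of each receptor gene (x axis) on the si-NC array (open circles) and the si-DRAIC2 array (filled circles), 1 array each, with a line joining both. Shading marks signals up to the presumed silent level of 5.88 and the dotted line the 99th percentile of those families (7.60), and *FFAR3* and *FFAR4* lie within the shading.

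Both odorant receptor genes were dimmer in si-*DRAIC*2. *OR51E2*, also known as PSGR for its expression in prostate, had log2 signals of 11.08 (si-NC) and 10.39 (si-*DRAIC*2), a 1.62-fold lower signal (log2 difference −0.70). It was brighter than 80.1% of all transcript clusters in si-NC and than 75.1% in si-*DRAIC*2. *OR51E1*, its close relative, had 7.08 and 6.55, a difference of −0.53 or 1.45-fold, which is short of the 1.5-fold of the study's methods. *OR51E1* lay 0.93 log2 units above the presumed silent level and *OR51E2* 4.85 units above it. *OR51E2* overlaps *OR51C1* in the RefSeq gene table, and *OR51C1* has no named row, so its part in the signal of *OR51E2* was not tested.

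*TAAR1* was the brightest of the 7 on both arrays. It had log2 signals of 12.07 (si-NC) and 11.09 (si-*DRAIC*2), a log2 difference of −0.98 or 1.97-fold, so that 50.9% of the si-NC signal remained. On either array most transcript clusters were dimmer, 87.5% in si-NC and 80.3% in si-*DRAIC*2. Its 5 measured relatives, *TAAR2*, *TAAR5*, *TAAR6*, *TAAR8* and *TAAR9*, are olfactory amine receptors in the mouse. They lay between 3.89 and 4.63 in mean signal, all below the presumed silent level, whose yardstick includes them. None of them passed 1.5-fold, and their differences ran from −0.58 to 0.16.

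The fatty acid receptor genes did not go together. *FFAR2*, also called GPR43, which binds short-chain fatty acids, had log2 signals of 9.04 (si-NC) and 7.82 (si-*DRAIC*2), a 2.33-fold lower signal (log2 difference −1.22), the most negative of the 7 genes. In si-*DRAIC*2 it kept 42.9% of its si-NC signal and stayed above the presumed silent level. *FFAR1*, the long-chain fatty acid receptor GPR40 of islet beta cells, had 8.52 and 8.79, a difference of 0.28 or 1.21-fold, and was the 1 gene of the 7 with a higher signal in si-*DRAIC*2.

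The other pair of fatty acid receptor genes lay below the presumed silent level. *FFAR4* (GPR120), a receptor for long-chain and omega-3 fatty acids, had log2 signals of 4.97 (si-NC) and 4.91 (si-*DRAIC*2). *FFAR3* (GPR41), the other receptor for short-chain fatty acids, had 3.88 and 3.76. Their differences of −0.05 and −0.12 are between dim signals. *FFAR3* has a near-identical neighbour, *GPR42*, with no named row, and probes may not tell them apart.

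Of the 7 genes, 3 were more than 1.5-fold lower in si-*DRAIC*2 (*FFAR2*, *TAAR1* and *OR51E2*), none was higher and 4 lay within 1.5-fold. Among all transcript clusters, 6.26% were lower and 5.13% higher by this measure. The median difference of the 7 was −0.53, and that of all named genes −0.010. Since the choice of genes used these differences, nothing is read from the counts. Around the threshold, a log2 difference of 0.58 either way, *OR51E2* lay just past it and *OR51E1* just short of it. At 2-fold, which 0.993% of all transcript clusters passed downwards, *FFAR2* alone remained. In total RNA, fewer cells with a transcript and less transcript per cell cannot be told apart.

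Differences past 1.5-fold were spread unevenly over the range of signals, so each gene is also given beside transcript clusters within 0.5 log2 units of its mean signal. As the genes were chosen with these differences known, their places among such clusters are a description and nothing is read from them. Of 1588 such clusters around *TAAR1*, 3.02% were lower by more than 1.5-fold, and 5 had a more negative difference than *TAAR1*. Around *FFAR2* 8.09% of 1594 were lower, and again 5 had a more negative difference. For *OR51E2* these figures were 5.24% of 1640, with 52 more negative. Around *OR51E1* 8.25% of 1527 were lower by more than 1.5-fold, and 162 clusters had a more negative difference. *FFAR1* had a more positive difference than 81.8% of the 1586 clusters around it. For *FFAR3* this share was 36.3% of 3619 and for *FFAR4* 45.1% of 2801.

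**Figure D2:**
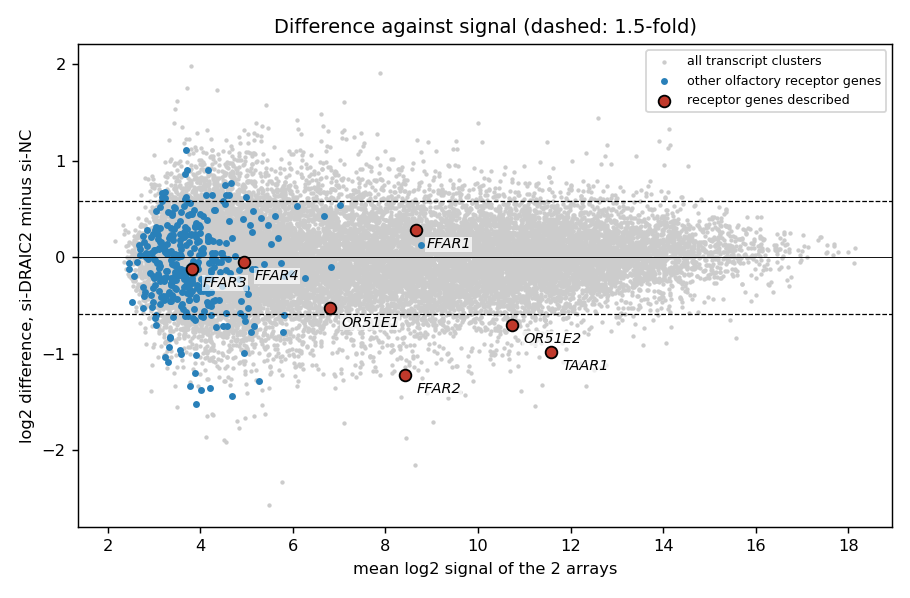
Log2 difference, si-DRAIC2 minus si-NC, against the mean log2 signal of both arrays for all 21448 transcript clusters (grey), 346 other olfactory receptor genes (blue) and the 7 receptor genes (red). Dashed lines mark 1.5-fold, and *FFAR2*, *TAAR1* and *OR51E2* lie below the lower line at signals above those of most olfactory receptor genes.

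*OR51E1* and *OR51E2* were then set beside the other 346 olfactory receptor genes on the array, whose symbols have the same form (the yardstick also holds 1 whose symbol ends in a letter). These genes had a median mean signal of 3.70, and 7 of them lay above the presumed silent level, whose yardstick they largely make up themselves. *OR2W3* was the brightest of them, with 8.70 in si-NC and 8.83 in si-*DRAIC*2, followed by *OR56A3* (6.75 and 7.29) and *OR52N2* (6.88 and 6.78). None of the 7 passed 1.5-fold in either direction. *OR51E2* was thus brighter than each of the other 346 by mean signal, a comparison between probes and not of RNA amounts.

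Of the 346 genes, 36 (10.4%) were lower and 17 (4.91%) higher by more than 1.5-fold, beside 5.96% lower and 4.99% higher of all named genes. Their median difference was −0.07. All 53 of these lay at or below the presumed silent level, and with an offset of 32 on the linear scale of both arrays, which shrinks differences between dim signals, 2 of the 346 passed 1.5-fold. *OR51E2* still did, with a difference of −0.68. Among named genes at or below the presumed silent level in general, 7.10% were lower and 6.29% higher.

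**Figure D3:**
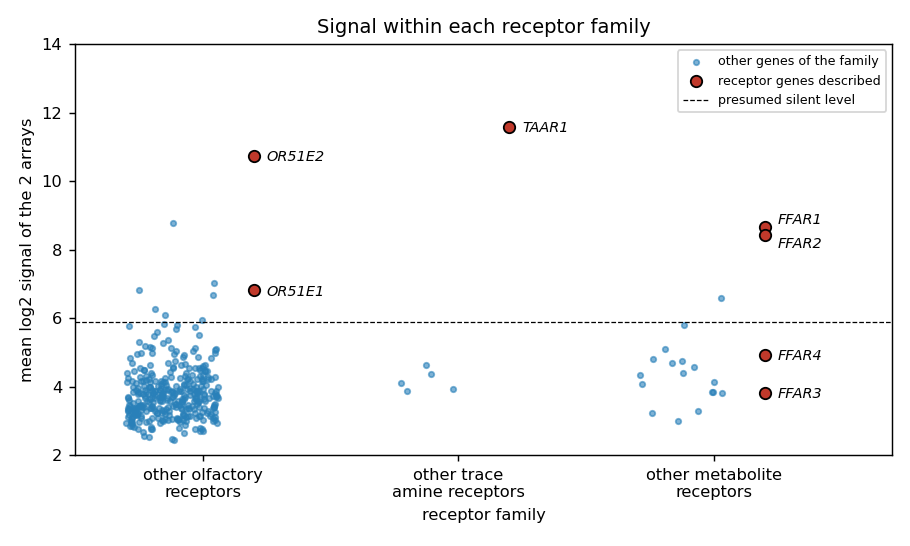
Mean log2 signal of both arrays for the 7 receptor genes (red) and for other genes of each family (blue, 346 olfactory receptors, 5 trace amine receptors and 17 other metabolite receptors, spread sideways to be seen). The dashed line is the presumed silent level of 5.88, and *OR51E2*, *TAAR1*, *FFAR1* and *FFAR2* lie well above it. Its yardstick holds the blue olfactory and trace amine receptor genes, so that few of these lie above it is partly set in advance.

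Other receptors for metabolites, such as those for bile acids, lactate, succinate and amino acids, had mostly dim signals. Of 17 measured genes, 1 lay above the presumed silent level. In each direction 3 (17.6%) passed 1.5-fold, beside 4.99% higher and 5.96% lower of all named genes. All but 1 of these lay at or below the presumed silent level, where 6.29% of named genes were higher and 7.10% lower. With the offset of 32, 1 of the 17 still passed 1.5-fold. The gene above that level was *GPBAR1*, the cell surface receptor for bile acids, with a signal of 6.19 in si-NC and a difference of 0.81 or 1.75-fold. *CASR*, the calcium-sensing receptor gene, had 5.67 and 5.95, and *HCAR3*, a receptor gene for hydroxylated fatty acids, had 5.11 and 5.10. The list had a median difference of 0.03.

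The genes next to the members on the chromosomes were mostly dim, and none with a named row passed 1.5-fold. On chromosome 11, *OR51E1* and *OR51E2* are separated in the RefSeq table by a pseudogene and a lncRNA gene, neither with a named row. On the outer sides lie *OR51D1* (3.96 in si-NC and 3.79 in si-*DRAIC*2) with *TRIM68* beyond it (9.75 and 9.58), and past *OR51C1* the metalloprotease gene *MMP26* (4.47 and 4.19). On chromosome 6, *TAAR2* (4.16 and 4.05) and the pseudogene *TAAR3P* (4.33 and 3.96) lie on one side of *TAAR1*, and *VNN1* (2.57 and 2.56) on the other. A bright signal at *TAAR1* thus stood between dim named neighbours.

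On chromosome 19, *FFAR1*, *FFAR3*, *GPR42* and *FFAR2* lie in this order, and the members among them had differences of 0.28, −0.12 and −1.22. *KRTDAP*, on the far side of *FFAR2*, had 3.81 in si-NC and a difference of 0.19. On chromosome 10, *RBP4*, the retinol-binding protein gene near *FFAR4*, had 3.12 and 3.69, a difference of 0.58 at dim signal that is just within 1.5-fold. *FFAR4* also overlaps a lncRNA gene that has no named row.

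Among genes that pass the receptors' signals on, most G protein alpha subunit genes lay above the presumed silent level and within 1.5-fold between the arrays. Of 16 G protein alpha subunit genes, 13 lay above the presumed silent level. By more than 1.5-fold, 1 was higher (6.25%) and 2 lower (12.5%), beside 4.99% and 5.96% of all named genes. The list had a median difference of 0.03. *GNAL*, which serves odorant receptors in the nose, had log2 signals of 11.00 (si-NC) and 11.04 (si-*DRAIC*2), and *GNAS*, its relative in other tissues, 13.21 and 13.51. *GNAI1*, an inhibitory subunit gene, had 13.56 and 13.70. *GNAO1*, of the same inhibitory class, was higher (13.02 and 13.67, a difference of 0.64), and *GNAZ*, also of this class, was lower (10.10 and 8.97, a difference of −1.13 or 2.18-fold). *GNAT3*, the gustducin gene of taste cells, was lower at dim signal (5.40 and 4.68).

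Among 22 adenylyl cyclases, phospholipases of the beta class and their effectors, 12 lay above the presumed silent level. By more than 1.5-fold, 3 of the 22 (13.6%) were higher, 1 of them above that level, and none was lower. Of all named genes, 4.99% were higher and 5.96% lower. The list had a median difference of −0.15. *PRKACA*, a catalytic subunit gene of protein kinase A, had 12.43 and 12.42, and *ITPR2*, a calcium release channel gene, 12.63 and 12.41. *CNGA2*, a subunit gene of the olfactory cyclic nucleotide-gated channel, was higher (7.15 and 7.75, a difference of 0.60), and no longer passed 1.5-fold with the offset of 32 (0.51). *ADCY3*, the cyclase of olfactory neurons, had 5.73 and 5.57, below the presumed silent level.

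Of 17 arrestins, receptor kinases and receptor transport proteins, 3 (17.6%) were higher and 2 (11.8%) lower by more than 1.5-fold. Above the presumed silent level, 2 were higher and 1 lower. Of all named genes, 4.99% were higher and 5.96% lower. The list had a median difference of 0.02. *REEP5*, which shapes the endoplasmic reticulum, was higher (11.80 with si-NC and 12.87 with si-*DRAIC*2, differing by 1.08 or 2.11-fold), and so was *REEP3* (10.95 and 11.55). *GRK2*, a kinase that desensitizes receptors, was lower (7.70 and 7.04, a difference of −0.67, or −0.56 and within 1.5-fold with the offset of 32), and *ARRB1*, which encodes an arrestin, had 11.91 and 11.97. *RTP1* (4.13 and 3.81) and *RTP2* (4.06 and 4.12), which carry odorant receptors to the surface of olfactory neurons, lay below the presumed silent level.

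**Figure D4:**
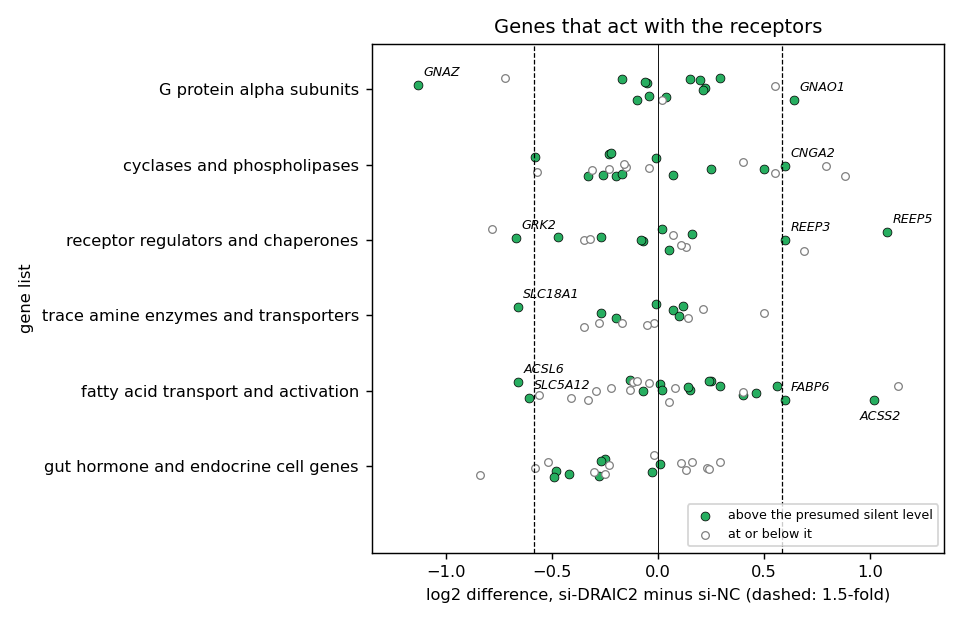
Log2 difference, si-DRAIC2 minus si-NC (x axis), of each measured gene in 6 lists of genes that act with the receptors (y axis). Filled circles lie above the presumed silent level and open circles at or below it, dashed lines mark 1.5-fold, and the filled genes past them are named, with *GNAZ* at −1.13 and *REEP5* at 1.08 the farthest out of these.

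The enzymes that make and break down the ligands of *TAAR1* had nearly equal signals on both arrays. Of 15 measured genes for amine synthesis, breakdown and transport, none was higher and 1 (6.67%) was lower by more than 1.5-fold. Of all named genes, 4.99% were higher and 5.96% lower. The list had a median difference of −0.02. *DDC*, the decarboxylase that makes trace amines, serotonin and dopamine, had log2 signals of 13.47 (si-NC) and 13.55 (si-*DRAIC*2). *MAOA*, which degrades amines, had 9.82 and 9.94, and *SLC18A2*, a vesicular monoamine transporter gene, 11.23 and 11.33. The related transporter gene *SLC18A1* was the lower one (8.79 and 8.12, a difference of −0.66).

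Of 29 measured genes that transport, release or activate fatty acids, 3 (10.3%) were higher and 2 (6.90%) lower by more than 1.5-fold. Of all named genes, 4.99% were higher and 5.96% lower. The list had a median difference of 0.02. *ACSS2*, which turns acetate, a ligand of *FFAR2*, into acetyl-CoA, was higher (7.62 and 8.64, a difference of 1.02 or 2.03-fold). *FABP6*, a bile acid-binding protein gene of the ileum, was higher at 7.73 and 8.33. *SLC5A12*, a sodium-coupled carrier gene of lactate, was lower (8.16 and 7.55), and so was *ACSL6*, a long-chain acyl-CoA synthetase gene (6.71 and 6.05). With the offset of 32, *ACSS2* alone of these 4 passed 1.5-fold (0.92). The other higher gene, *MGLL*, lay below the presumed silent level (3.44 and 4.58, a difference of 1.13, or 0.38 with the offset). *BSG*, a partner of monocarboxylate transporters, had 14.73 and 14.88.

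Among the measured hormone genes of gut and islets, *GAST* and *CCK* lay above the presumed silent level and all others below it, with *GCG* and *PYY* among these. Of 21 measured genes of gut hormones and endocrine cells, 8 lay above the presumed silent level, with a median difference of −0.25 over the list. Beside 4.99% higher and 5.96% lower of all named genes, none was higher by more than 1.5-fold and 1 (4.76%) was lower. *PYY*, the hormone of intestinal L cells, was that gene, at dim signal (5.41 in si-NC and 4.57 in si-*DRAIC*2). *CCK* had 6.35 and 5.86, *GCG*, which encodes glucagon and GLP-1, 5.64 and 5.41, and *GAST* 6.96 and 6.97. The bright genes of the list were *CHGB*, *INSM1* and *CHGA* (12.41 and 12.17), which mark endocrine cells of many organs.

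Because *OR51E1* and *OR51E2* are known from prostate, prostate genes were read as well. *KLK3*, which encodes prostate-specific antigen, had log2 signals of 12.91 (si-NC) and 12.54 (si-*DRAIC*2), and *KLK2* had 6.58 and 5.90, a difference of −0.68 that was −0.47 with the offset of 32. *ACP3*, the prostatic acid phosphatase gene, had 4.90 and 5.57, below the presumed silent level. Their part in the signals of the odorant receptor genes was not tested.

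For each of the 5 genes above the presumed silent level, the named genes with the closest pair of signals were sought by Euclidean distance over the 2 arrays. Next to *TAAR1* were *SPPL2A* (a distance of 0.123), *MGRN1* (0.151) and *SIAH2* (0.217), and next to *FFAR2* were *RPUSD4* (0.061), *SLC43A1* (0.117) and *PRKCE* (0.132). *OR51E2* was closest to *SNX12* (0.050), *PIGM* (0.058) and *AP1S2* (0.084). *OR51E1* was closest to *CYP2J2* (0.028), *ZSWIM7* (0.031) and *MCOLN3* (0.036), and *FFAR1* to *E2F5* (0.014), *GALNT2* (0.019) and *MRPL23* (0.027). With 2 arrays, such closeness says only that both signals were alike.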

How the data were processed

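Total RNA of VMRC-LCD cells was measured on Human Clariom S arrays, 1 per condition. The deposited log2 signals are those of SST-RMA, which the authors ran on their CEL files in Transcriptome Analysis Console (background correction, quantile normalization, summarization). Its version and the build: not given in the sources used here. Quantile normalization would hide a change common to all transcripts. Both columns were used as deposited. Symbols came from the platform annotation, and all 17709 named clusters matched the RefSeq table by gene identifier. Clusters of 1 symbol were averaged on the log2 scale, and 3739 clusters are unnamed.

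Differences are si-*DRAIC*2 minus si-NC, read against a 1.5-fold threshold as in the study's methods. No test was possible with 1 array per condition, and the number of arrays limits precision. The 7 receptor genes and the 9 gene lists were chosen with earlier results of these data known. Of each list, genes past 1.5-fold above the presumed silent level (at most 4) and the 3 brightest were named, together with the nearest 2 genes on each side of each member and the 3 genes with the closest signals. Others (*GNAL*, *GNAT3*, *ADCY3*, *RTP1*, *RTP2*, *GAST*, *MGLL*, *TAAR6* and *TAAR8*) were named after their values were seen. Alternatives were an offset of 32, a median difference of 0, a loess (span 0.3), a 2-fold threshold, a filter at the median signal, and other presumed silent levels. The loess and the threshold were tested on simulated data. Python 3.11.15, numpy 2.4.6, pandas 2.3.3, statsmodels 0.14.6 and matplotlib 3.10.9 were used.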

Additional observations from a re-analysis of the deposited data

How the results depend on the processing

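All 7 differences kept their direction and their side of 1.5-fold with 32 added to both linear signals, with the median difference set to 0 and after a loess on mean signal, with *FFAR2* between −1.22 and −1.11 and *OR51E1* between −0.53 and −0.41. At 2-fold, 1 of the 3 lower genes remained. The 5 genes above the presumed silent level became 4 at the 99th percentile of the silent families, where *OR51E1* no longer lay above it. The count stayed 5 at the 95th percentile of the keratin-associated, beta-defensin and vomeronasal genes alone, which are 115 of the same 491 yardstick genes. That level was 6.56, and *OR51E1* had a mean signal of 6.81.

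Over all transcript clusters, 1343 lower and 1100 higher became 1289 and 1159 with the median difference set to 0, 1233 and 1205 after the loess, 521 and 373 with the offset, 213 and 131 at 2-fold and 521 and 376 at or above the median signal. In either direction, the counts past the threshold at 2-fold were 12 olfactory receptor genes in place of 53, 1 other metabolite receptor in place of 6, 1 G protein subunit in place of 3, none (0) of the cyclases and phospholipases in place of 3, 1 receptor regulator in place of 5, 0 trace amine genes in place of 1, 2 fatty acid genes in place of 5 and 0 gut hormone genes in place of 1. With the offset they were 2 olfactory receptors, 1 other metabolite receptor, 0 cyclases and phospholipases, 2 receptor regulators, 1 fatty acid gene and 0 gut hormone genes. The cause was not tested, beyond that the offset damps dim signals and 2-fold is stricter. No paired analysis was possible because each condition has 1 array, and for the same reason no array could be left out.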
